A study of Homo sapiens with 3 samples.

Results

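The interleukin-1 (IL-1) family cytokines and their antagonists were read in THP-1 macrophages on 3 one-color arrays. The group was a list of 10 genes given by name, and every probe that carries one of these names was taken. These were 12 probes for 10 genes, among 58201 probes for 43317 named genes or transcripts on the array. Each of the 10 genes was measured, 8 with a single probe and IL1RN and IL36RN with 2 probes each. The choice goes by name, with no threshold on a measured value, but it was made with earlier results of these data known.

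THP-1 cells, grown from a human monocytic leukemia, take on a macrophage-like state when exposed to the phorbol ester PMA. All cells had received PMA at 100 ng/ml for 24 to 36 h and a night in fresh medium. The Ctrl array held RNA of macrophages without further treatment, the IMQ array that of macrophages given imiquimod (IMQ), a small-molecule ligand of toll-like receptor 7, and the IMQ+DMD array that of macrophages given DMD, a dimethoxy-substituted benzenediol from the mushroom Antrodia cinnamomea, before IMQ. The labels state 4 h for each array. They call the third treatment IMQ plus X, and X was taken to be DMD, the only other compound that they mention. Doses of IMQ and DMD are absent from the labels, and the general methods of the study describe a longer exposure to IMQ for THP-1 cells. DMD without IMQ was not analysed here. There was 1 array per condition, and all 3 arrays lay on 1 slide, so no p-value could be obtained and the differences below compare single arrays.

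IL-1 family cytokines are secreted or released signals that act through receptors with a cytoplasmic TIR domain, the adaptor MYD88, and the IRAK kinases, and that lead to NF-κB and MAPK activity in the receiving cell. IL1A, IL1B, IL18, IL33, IL36B, and IL36G are agonists. IL1B and IL18 are made as inactive precursors that caspase-1 cleaves within an inflammasome, while the IL1A precursor is already active. The family has its own brakes. IL1RN and IL36RN occupy a receptor without activating it, IL18BP binds and neutralizes IL-18, and IL1R2 is a decoy receptor that captures IL-1 without a signal. In macrophages, IL1B transcription is a rapid response to toll-like receptors, and the IL-36 cytokines are best known from the keratinocytes of psoriatic skin.

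The probes are 60 bases long, and 30 bases of each are printed for the genes on which the results turn, as the array design gives them. They are shown because both probes of IL1RN and both of IL36RN read different stretches of their gene. The capitals in the IL1RN sequence mark AATAAA, the hexamer known as a polyadenylation signal. The IL1R2 probe is printed whole, because it is the only one of the 12 whose ends lie farther apart on the genome (3646 bases) than its own length, so it joins sequence across a splice junction.
IL1A, A_23_P72096, bases 1 to 30: ttattattcttcataacaattttaggagga
IL1B, A_23_P79518, bases 1 to 30: ggaatcaattcaatttggactggtgtgctc
IL1RN, A_33_P3246833, bases 31 to 60: ctctgttttacAATAAAatcttgaaaatgc
IL1RN, A_33_P3246829, bases 1 to 30: ctccagaatggtctttctaatgtgtgaatc
IL36RN, A_22_P00021230, bases 1 to 30: tttcagaccctgttcacactctctttgtcc
IL36RN, A_24_P68783, bases 1 to 30: tgtggctggaatctctgggtaaggaactta
IL36G, A_23_P17053, bases 1 to 30: gtttctgttttgctttattccctcttggga
IL1R2, A_24_P63019, bases 1 to 60: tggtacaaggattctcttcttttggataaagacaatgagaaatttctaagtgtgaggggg

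On the hg19 build, the IL1A probe lies at chr2:113532362-113532421 and the IL1B probe at chr2:113587429-113587488, both on the minus strand. The IL1RN probes lie at chr2:113891531-113891590 and chr2:113890639-113890698 on the plus strand, and the IL36RN probes at chr2:113822785-113822844 and chr2:113821345-113821404 on the plus strand. The IL36G probe lies at chr2:113743007-113743066 (plus) and the IL36B probe at chr2:113786522-113786581 (minus). These 8 probes fall within 359.2 kb of chromosome 2. The IL1R2 probe lies outside this stretch, at chr2:102632505-102636150 (plus). The IL18 probe lies at chr11:112020811-112020870 (minus), the IL18BP probe at chr11:71712939-71712998 (plus), and the IL33 probe at chr9:6257372-6257431 (plus). The exon or untranslated region under each probe was not analysed here.

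On every array all 12 probes stood well above background, with 0 saturated spots and 0 spots marked as outliers. Each was a single spot per array, and 2 of the 36 spots, those of IL1B on the Ctrl array and of IL18 on the IMQ+DMD array, had less even pixels than 95% of spots of similar brightness on the same array. Values are the quantile-normalized intensities deposited by the authors, without a unit, and differences are on the log2 scale. The spot SD beside a difference is the scatter between repeated spots nearest to that brightness, estimated from 300 probes that have 10 spots on each array. No limit was set on how near, so for the brightest probes it need not hold at their own level. IL1B and the brighter IL1RN probe, at log2 18.18 and 16.53 on the IMQ array, had the same spot SD of 0.0445 there. The spot SD covers noise within an array and leaves out the spread between cultures, RNA preparations, and hybridizations. A probe counted as higher or lower at 2-fold, which is 1 on the log2 scale. Probe levels do not rank genes by their RNA, and the brightest probe of a list below means fluorescence only. Of the 8 other ways of processing, 2 (no floor, and only probes above background on both arrays) leave the values of all 12 probes as they are, so 6 could move them. The 3 comparisons share their arrays, so they are not independent.

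IL1B and IL1A, both agonists, had the highest rises with IMQ. Of the 10 genes, 4 were at least 2-fold higher on the IMQ array than on the Ctrl array (IL1B, IL1A, IL36G, and IL1R2) and 0 were at least 2-fold lower, against 4.31% of all 41107 probes compared that were at least 2-fold higher and 3.48% that were at least 2-fold lower. Of the 10 differences, 7 were positive, and their median was 0.78 against -0.01 over all probes compared. Without normalization between arrays 6 were positive with a median of 0.27, and under spike-in scaling 5 with a median of 0.18, where the median of all probes was -0.51 and -0.60. In bulk RNA, fewer cells of a type and less RNA per cell cannot be told apart.

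The normalized intensity of IL1B was 13654 in Ctrl, 297794 with IMQ, and 263566 with IMQ+DMD. Both arrays with IMQ were far above the Ctrl array and close to each other. The rise with IMQ was 21.8-fold, a log2 difference of 4.45 with a spot SD of 0.067, and 41 of the 41107 probes compared had a difference as high. The IL1B difference between IMQ+DMD and IMQ was -0.18 with a spot SD of 0.056, and IMQ+DMD remained 19.3-fold above Ctrl, which left 96.0% of the log2 rise. On both arrays with IMQ the IL1B spot was among the brightest, with 113 and 138 spots of similar brightness. Whether the signal still followed RNA evenly at that brightness was not tested.

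The normalized intensity of IL1A was 27.5 in Ctrl, 137 with IMQ, and 80.6 with IMQ+DMD. The order of the arrays was that of IL1B, with a wider step between both arrays with IMQ. IL1A was 4.98-fold higher with IMQ than without, a log2 difference of 2.32 with a spot SD of 0.34. With IMQ+DMD its log2 difference from IMQ was -0.76 with a spot SD of 0.19, and 67.1% of the log2 rise was left. The IL1A level in Ctrl was 4.78 on the log2 scale, where the dimmest probe above background on that array stood at 4.04, and its rise had the highest spot SD of the 4. Under the other ways of processing it ranged from 1.19 to 2.32, while that of IL1B ranged from 4.11 to 4.64.

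IL36G, an agonist of the IL-36 receptor, had normalized intensities of 165 in Ctrl, 332 with IMQ, and 255 with IMQ+DMD. The IMQ+DMD array lay between the other two. IL36G stood just past the 2-fold line with IMQ, at 2.01-fold and a log2 difference of 1.01 with a spot SD of 0.12, and fell short of it under 5 of the 6 ways of processing that could move it. Its log2 difference between IMQ+DMD and IMQ was -0.38 with a spot SD of 0.10, which left 62.2% of the log2 rise.

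The other 3 agonists showed no rise of 2-fold. IL18, the interferon-gamma-inducing cytokine, had intensities of 388, 307, and 280 in Ctrl, with IMQ, and with IMQ+DMD, and its difference with IMQ was -0.34 with a spot SD of 0.10. IL33, an alarmin of barrier tissue, had intensities of 136, 113, and 134, and its difference with IMQ of -0.27 had a spot SD of 0.19. IL36B had intensities of 46.8, 73.6, and 67.0, and its difference with IMQ of 0.65 had a spot SD of 0.31 and became -0.06 when scaled to the spike-in probes. Between IMQ+DMD and IMQ these 3 genes differed by -0.13, 0.25, and -0.14, each less than 2 times its spot SD.

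**Figure D1:**
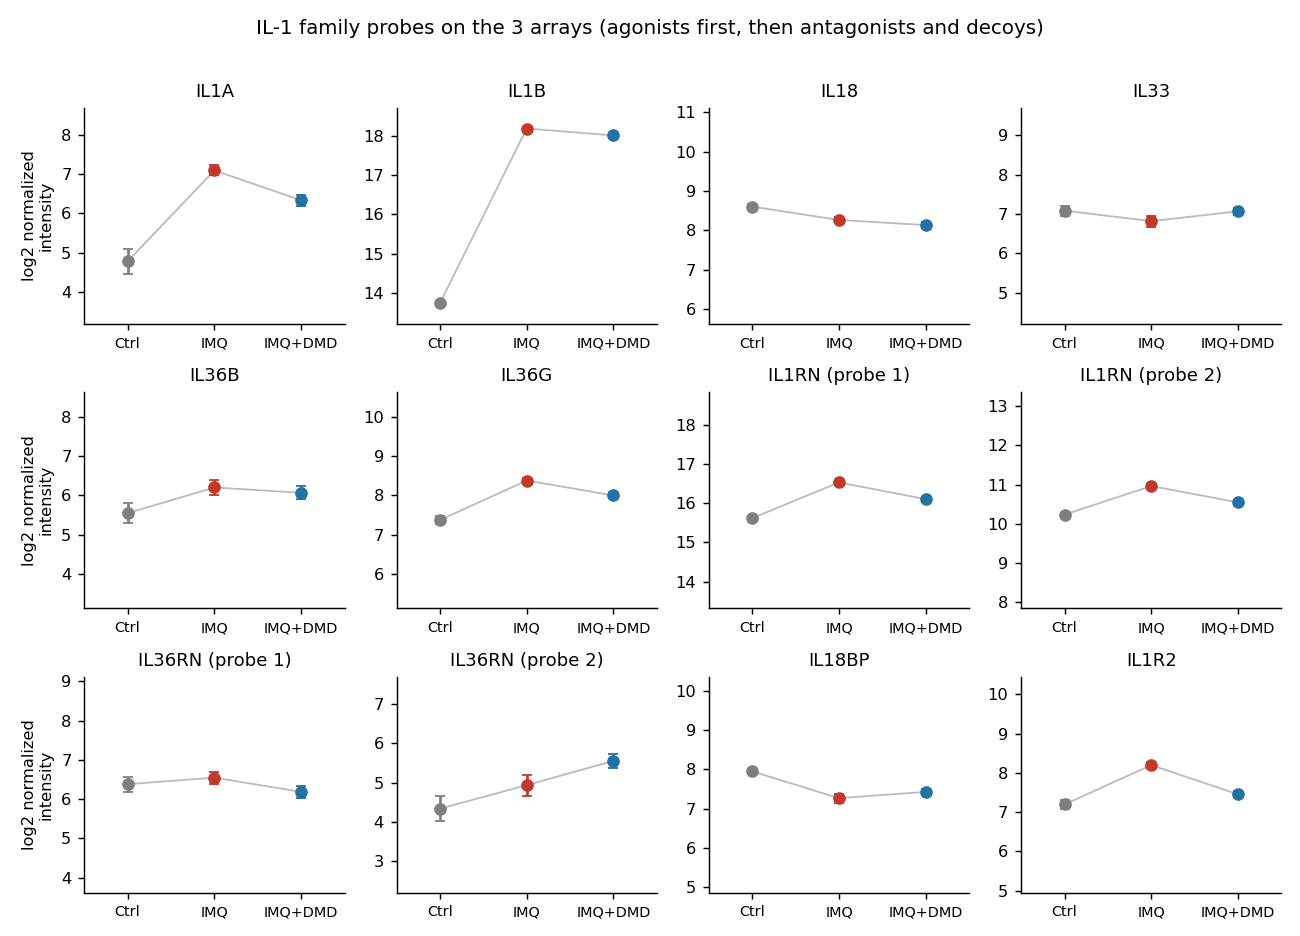
Log2 normalized intensity of the 12 probes in Ctrl, with IMQ, and with IMQ+DMD, 1 panel per probe and 1 point per array, with the spot SD as error bars. Each vertical axis has its own position and the same span, so that slopes can be compared but not levels. IL1B rose by 4.45 and IL1A by 2.32 with IMQ, and 10 of the 12 panels are flatter.

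Among the antagonists, IL1RN was close to the 2-fold line and IL1R2 on it, while IL18BP lay below Ctrl. Of these 4 genes, 1 (IL1R2) was at least 2-fold higher with IMQ and 0 were at least 2-fold lower, beside the 4.31% and 3.48% of all probes compared, and the median difference was 0.54. The median was 0.04 without normalization between arrays and -0.05 under spike-in scaling, with 0 genes higher and 1 lower in each. Under these 2 scalings 15.6% and 19.7% of all probes compared were at least 2-fold lower, and 1.71% and 1.51% at least 2-fold higher.

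IL1RN encodes the IL-1 receptor antagonist. Its brighter probe, A_33_P3246833, had normalized intensities of 50224 in Ctrl, 94437 with IMQ, and 70295 with IMQ+DMD. Its other probe, A_33_P3246829, had intensities of 1206, 1997, and 1495. Both probes gave the same order of arrays. The log2 differences with IMQ were 0.91 (1.88-fold) and 0.73 (1.66-fold), with spot SDs of 0.067 and 0.069. The brighter probe passed 2-fold when scaled to the 75th percentile (1.08), and the dimmer one was down to 0.24 under spike-in scaling. Between IMQ+DMD and IMQ they were -0.43 and -0.42, with spot SDs of 0.057 and 0.060.

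IL1R2, the decoy receptor, had normalized intensities of 147 in Ctrl, 293 with IMQ, and 175 with IMQ+DMD. The IMQ array stood above the other two, which lay near each other. The rise of IL1R2 with IMQ stood on the 2-fold line, with a spot SD of 0.13 on the log2 scale, and fell short of the line under 5 of those 6 ways of processing, with 0.42 under spike-in scaling as the lowest. Its difference between IMQ+DMD and IMQ was -0.74 with a spot SD of 0.11, and 25.6% of its log2 rise was left. What was left, 0.26 above Ctrl, turned to -0.09 without normalization between arrays and to -0.03 under spike-in scaling.

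IL18BP, the soluble inhibitor of IL-18, had intensities of 247 in Ctrl, 154 with IMQ, and 172 with IMQ+DMD. Its difference with IMQ was -0.68 with a spot SD of 0.13, and it became at least 2-fold lower without normalization between arrays (-1.23) and under spike-in scaling (-1.32). The probes of IL36RN, the antagonist of the IL-36 receptor, did not move alike. The array design assigns A_22_P00021230 to an Ensembl transcript and A_24_P68783 to a RefSeq transcript. The former, being brighter, stood for the gene in the counts. Probe A_22_P00021230 had intensities of 83.4, 93.5, and 72.9 in Ctrl, with IMQ, and with IMQ+DMD, and probe A_24_P68783 had 20.2, 30.5, and 46.9. Between IMQ+DMD and IMQ they differed by -0.36 and 0.62, with spot SDs of 0.21 and 0.31, and the second value reached 1.14, past 2-fold, under spike-in scaling. Both differences with IMQ, 0.17 and 0.60, lay within 2 times their spot SDs and turned negative without normalization between arrays and under spike-in scaling.

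Differences of genes on the same arrays can be set against each other, since a scaling factor common to an array cancels, while other steps of the processing do not. IL1B gained 3.54 more on the log2 scale with IMQ than the brighter IL1RN probe, an 11.6-fold change of their ratio with a spot SD of 0.095, and 3.72 more than the dimmer one. This gap ranged from 3.51 to 3.65 for the brighter probe under the other ways of processing. IL1B also gained 2.13 more than IL1A, the lowest of its values, which reached 3.23 under the other ways of processing, and 3.45 more than IL1R2 (up to 3.68). With IMQ+DMD against IMQ, IL1B lost 0.25 less than the brighter IL1RN probe (spot SD 0.080), 0.59 less than IL1A (spot SD 0.20, down to 0.24 under the other ways of processing), and 0.57 less than IL1R2 (spot SD 0.13, down to 0.33). The part of the high brightness of IL1B in these gaps was not tested.

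With each gene read from its brightest probe, no member passed 2-fold between IMQ+DMD and IMQ. Of the 10 genes, 0 were higher and 0 lower at that line, where 1.09% of the 40829 probes compared were at least 2-fold higher and 1.31% at least 2-fold lower. The difference was negative for 8 of the 10 genes (median -0.27, against -0.01 over all probes compared), and for 5 of the 10 under spike-in scaling (median -0.02, against 0.21). It kept its negative sign under the 6 ways of processing that could move it for IL1A, IL1B, IL1RN (both probes), IL36G, and IL1R2, with values nearest to 0 of -0.36 for IL1A, -0.12 for IL1B, -0.12 for IL36G, and -0.45 for IL1R2. The spot SD does not cover the spread between cultures, so these values have no error of that kind. IL18, IL36B, and the IL36RN probe A_22_P00021230 also had negative values, of -0.13, -0.14, and -0.36, and these turned positive under at least 1 other scaling.

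Against Ctrl, 2 of the 10 genes (IL1B and IL1A) were at least 2-fold higher with IMQ+DMD and 0 were at least 2-fold lower, while 3.09% of the 43692 probes compared were at least 2-fold higher and 4.91% at least 2-fold lower. IL36G and the brighter IL1RN probe stood 0.63 and 0.49 above Ctrl on the log2 scale. IL1R2 stood 0.26 above it, with a spot SD of 0.13. The second IL36RN probe was 1.22 above Ctrl with a spot SD of 0.36, from a Ctrl intensity near the dimmest that counted as above background, and the first was -0.20.

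**Figure D2:**
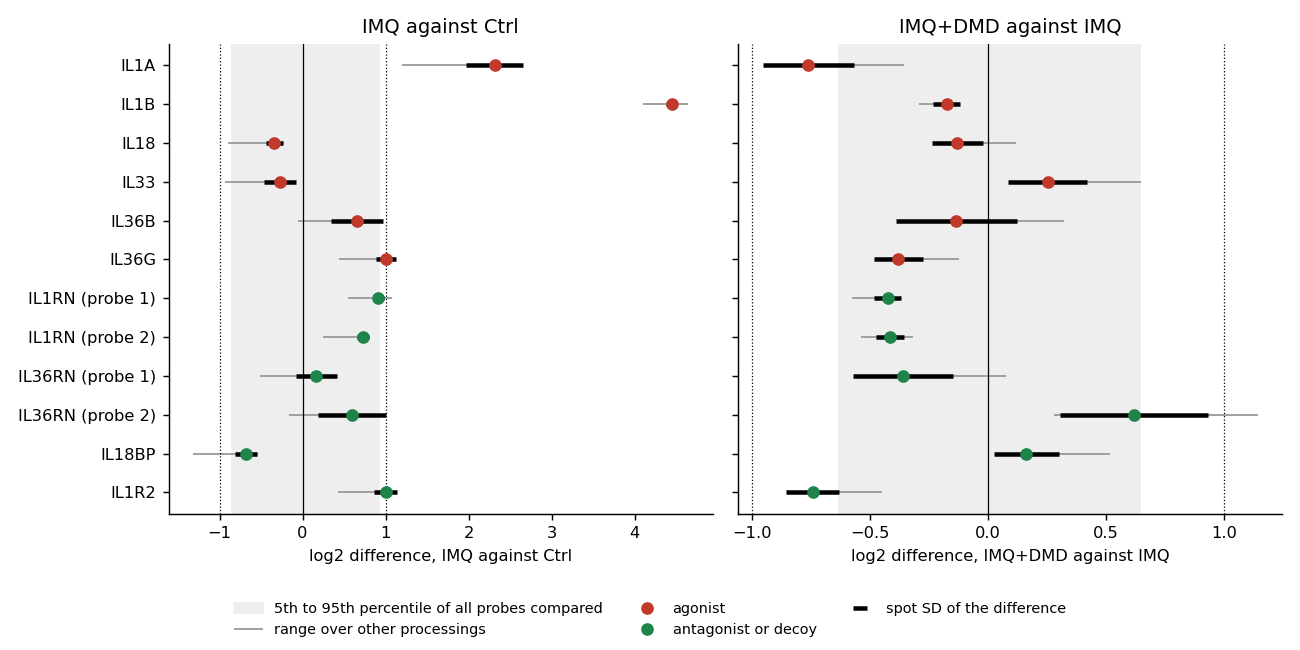
Log2 differences of the 12 probes between IMQ and Ctrl (left) and between IMQ+DMD and IMQ (right), which share the IMQ array. Points are the main values (agonists red, antagonists and decoys green), black bars the spot SD, thin lines the range over the other ways of processing, the grey band the 5th to 95th percentile of all probes compared (-0.85 to 0.93 and -0.63 to 0.64), and dotted lines 2-fold. IL1B and IL1A lie far right of the band on the left, and IL1A and IL1R2 lie left of it on the right.

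Genes around the family were read from lists chosen by function, and the brightest probe of a gene stood for it. The receptor chains were split. Of 7 chains, IL1RL1, the IL-33 receptor, was not well above background on any array, and among the other 6 the median difference with IMQ was 0.18, with 2 at least 2-fold higher and 0 lower (4.31% and 3.48% of all probes). IL18R1, the ligand-binding chain of the IL-18 receptor, had intensities of 102, 235, and 178 in Ctrl, with IMQ, and with IMQ+DMD, a rise of 2.32-fold with IMQ, and its other probes rose by 1.99 and 1.23 on the log2 scale. IL1RAP, the shared accessory chain, had intensities of 199, 454, and 393, a rise of 2.28-fold, but its other probes gave log2 differences of 0.70 and -0.57. The IL1RAP probe at -0.57 differed by 1.11 between IMQ+DMD and IMQ, past 2-fold, and the brightest by -0.21. IL18RAP differed by -0.26 with IMQ on its brightest probe, the value used in the median, and by 0.98 on its other probe. The brightest chain was SIGIRR, an inhibitory receptor, at 3160, 1936, and 1964 (its other probe differed by -0.10 with IMQ), and IL1R1, the signalling IL-1 receptor, differed by 0.60 with IMQ. The median of the 6 chains turned to -0.28 without normalization between arrays and to -0.37 under spike-in scaling, with 0 chains higher and 1 lower at 2-fold in each (all probes 1.71% and 15.6%, then 1.51% and 19.7%), and with normexp 0 chains were higher (1.72%).

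Of 12 signalling genes, 1 was at least 2-fold higher with IMQ and 0 were lower (median 0.26), where 4.31% of all probes were higher and 3.48% lower. This was IRAK2, a kinase that sustains signalling downstream of MYD88, at 361 in Ctrl, 5587 with IMQ, and 5140 with IMQ+DMD. Its 15.5-fold rise (log2 difference 3.95, spot SD 0.079) came with a difference of -0.12 between IMQ+DMD and IMQ. MYD88 itself differed by -0.47 with IMQ. TAB3 differed by 0.75 with IMQ on its brightest probe, and on its other probes by 1.20, past 2-fold, and 0.42. TOLLIP, an adaptor that restrains the pathway and the brightest of the list, stood at 19005, 22214, and 23443, a difference of 0.23 with IMQ, while its other probe differed by -0.23. The median of the list turned to -0.09 without normalization and to -0.18 under spike-in scaling.

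In the maturation and release list, 4 of 10 genes were at least 2-fold lower with IMQ and 1 was at least 2-fold higher (median -0.41), beside 3.48% and 4.31% of all probes compared. The median was -0.86 without normalization between arrays, with 4 lower and 0 higher (15.6% and 1.71% of all probes). It was -0.95 under spike-in scaling, with 5 lower and 0 higher (19.7% and 1.51%). CASP1, the protease that cleaves the IL-1β and IL-18 precursors, had intensities of 4363 in Ctrl, 1990 with IMQ, and 1953 with IMQ+DMD, a log2 difference of -1.13 with IMQ. PYCARD, the adaptor known as ASC that joins inflammasome sensors to caspase-1, had 29022, 13263, and 13149, likewise a difference of -1.13. Both arrays with IMQ were close to each other and below Ctrl for both genes.

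The sensors NLRC4 and AIM2 followed. NLRC4 had 1354, 492, and 407 on the 3 arrays (log2 difference with IMQ -1.46), and AIM2, a sensor of cytosolic DNA, had 398, 97.2, and 70.7 (-2.03). These 4 stayed at least 2-fold lower in each of the other ways of processing. In the other direction, P2RX7, the ATP-gated channel that triggers IL-1β release, was 2.01-fold higher with IMQ, with log2 differences of 1.06 for each of its other 2 probes. This call of P2RX7 was lost without normalization between arrays, under spike-in scaling, with normexp, and with the median of pixels (lowest 0.53). NLRP3, the sensor most tied to IL-1β, had 6067, 9519, and 7709, a difference of 0.65. CASP4, whose probe was the brightest of the list by its mean log2 value over the 3 arrays, differed by -0.06. Between IMQ+DMD and IMQ, 0 of the 10 genes reached 2-fold (median -0.05), where 1.09% of all probes were higher and 1.31% lower.

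Of 7 transcription factors known to act on IL1B, 4 were at least 2-fold higher with IMQ and 1 was at least 2-fold lower (median 1.54), against 4.31% and 3.48% of all probes. CEBPB had intensities of 6151, 50440, and 51151 in Ctrl, with IMQ, and with IMQ+DMD, an 8.20-fold rise with IMQ and a difference of 0.02 between IMQ+DMD and IMQ. REL rose 5.94-fold and NFKB1 2.90-fold, both subunits of NF-κB. IRF4 was not well above background on the Ctrl array and was at least 4.95-fold higher with IMQ, counted from the lowest signal above background on that array. With normexp its log2 difference was 1.03, below that bound, and with only probes above background on both arrays, where IRF4 drops out, the median of the other 6 factors was 0.87. IRF4 was the only gene of these lists lower by 2-fold with IMQ+DMD, at 29.1 against 81.7 with IMQ alone, a difference of -1.49 with a spot SD of 0.25. Under the other ways of processing it ranged from -1.49 to -0.71. IRF8 had 1811, 817, and 568, a difference of -1.15 with IMQ. SPI1, the PU.1 factor of myeloid cells, differed by 0.04, and RELA by 0.21.

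All 6 genes of the feedback list were at least 2-fold higher with IMQ (median 2.60, with 4.31% of all probes as high) and again with IMQ+DMD against Ctrl (median 2.33, with 3.09%). SOCS3, an inhibitor of cytokine receptor signalling, rose from 40.8 to 1759 and stood at 1281 with IMQ+DMD. NFKBIA, the inhibitor of NF-κB and the brightest of the list, had 6863, 79557, and 72142, an 11.6-fold rise. ZC3H12A, an RNase that degrades cytokine transcripts, rose 6.82-fold, TNIP1 4.34-fold, and TNFAIP3, known as A20, 3.80-fold. NFKBIZ, which is known to activate some NF-κB targets as well as to restrain others, rose 5.42-fold, and its difference between IMQ+DMD and IMQ of -0.62 was the lowest of the 6. Of 8 housekeeping genes, 0 reached 2-fold in either direction in any of the 3 comparisons. The shares of all probes there ran from 1.09% to 4.91% per direction. The housekeeping median for IMQ against Ctrl was -0.12, but -0.35 without normalization between arrays and -0.44 under spike-in scaling. Under these 2 scalings HPRT1 was at least 2-fold lower with IMQ+DMD against Ctrl (lowest -1.08), beside 10.4% and 9.1% of all probes. ACTB, the brightest of the 8, had 347430, 318444, and 313054.

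**Figure D3:**
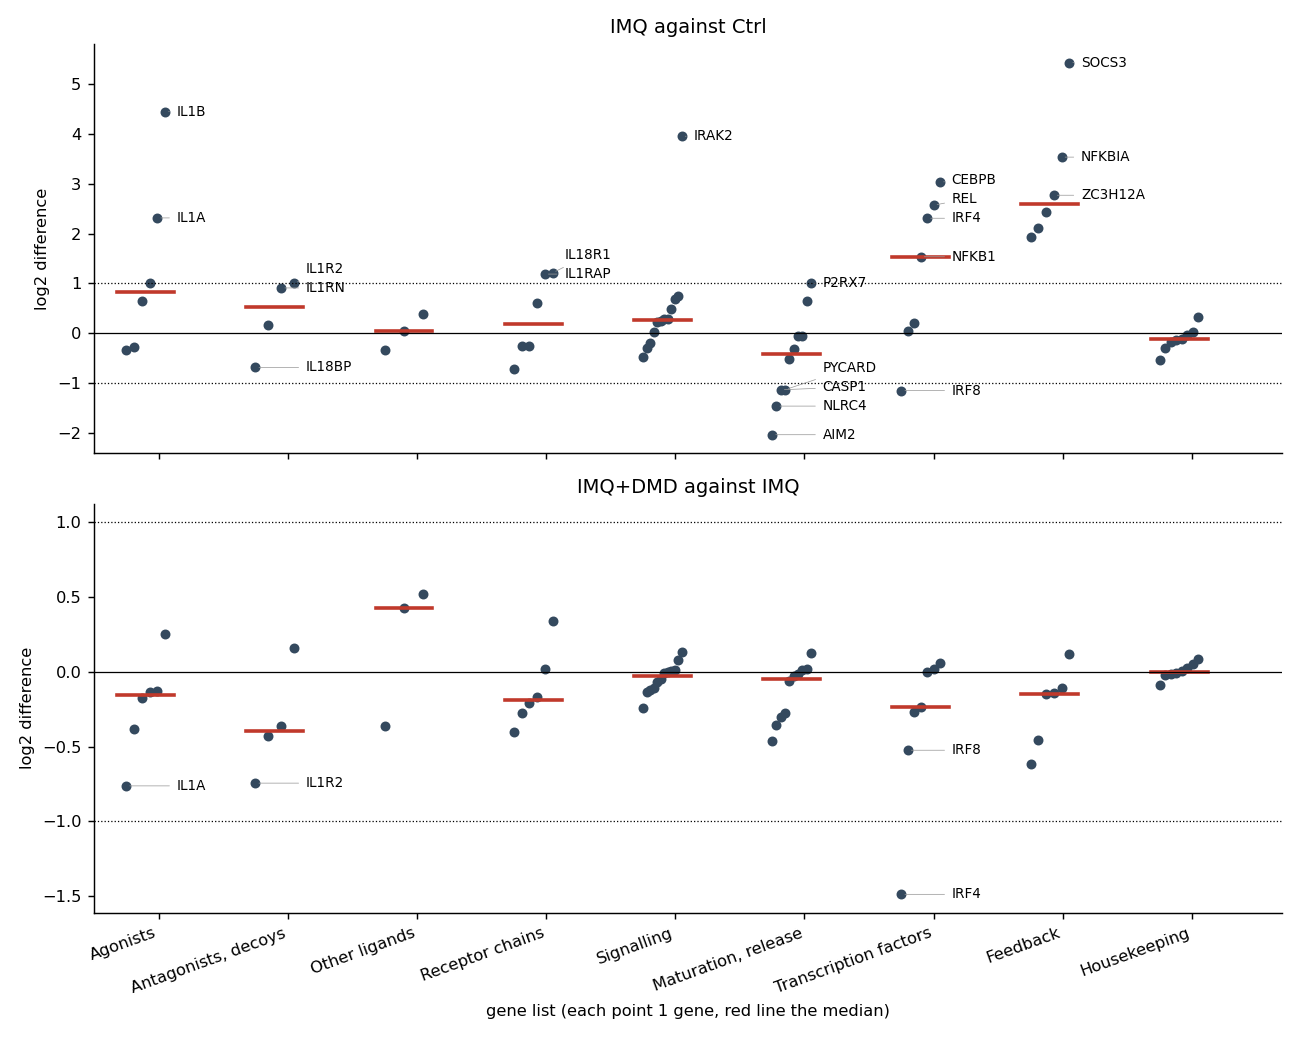
Log2 differences of the genes of 9 lists between IMQ and Ctrl (top) and between IMQ+DMD and IMQ (bottom). Each point is 1 gene read from its brightest probe, red lines are list medians, and dotted lines mark 2-fold. IL1B, IRAK2, CEBPB, and the feedback genes lie high in the top panel while AIM2, NLRC4, CASP1, and PYCARD lie low, and in the bottom panel IRF4 at -1.49 is the point beyond 2-fold.

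The remaining ligands of the family were read too. IL36A, the brightest of 3, had intensities of 112, 115, and 154 in Ctrl, with IMQ, and with IMQ+DMD. IL37, an anti-inflammatory member, had 63.4, 82.4, and 64.0, and IL1F10 (IL-38) had 90.5, 72.2, and 104. With IMQ, 0 of the 3 reached 2-fold in either direction, beside 4.31% of all probes higher and 3.48% lower. Their median of 0.04 turned to -0.53 without normalization and to -0.62 under spike-in scaling. Under spike-in scaling IL1F10 was at least 2-fold lower (-1.02), as were 19.7% of all probes. Of the 14 probes that lie from IL1A to IL1RN on chromosome 2, 3 (IL1B, IL1A, and IL36G) were at least 2-fold higher with IMQ, beside 4.31% of all probes compared, and these are the members already counted.

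**Figure D4:**
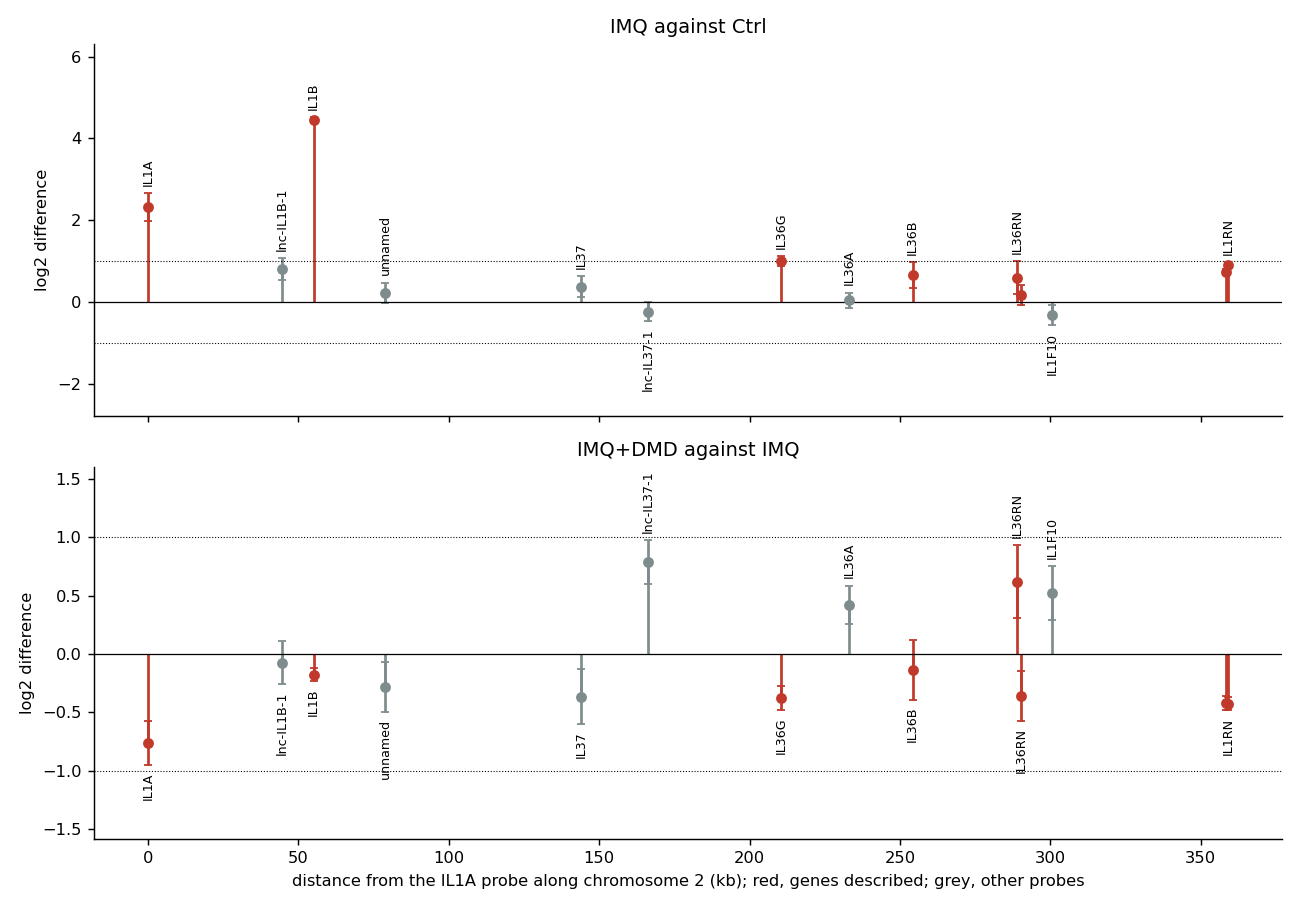
Log2 differences of the 14 probes between IL1A and IL1RN on chromosome 2, by distance in kb from the IL1A probe, between IMQ and Ctrl (top) and between IMQ+DMD and IMQ (bottom), with the spot SD as error bars. Red marks the genes described, grey the 6 other probes, and dotted lines 2-fold. IL1B at 4.45 and IL1A at 2.32 are the tallest in the top panel, and in the bottom panel no probe passes 2-fold.

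The stretches before the transcription starts of IL1B and IL1A are printed because both genes rose most and share the locus. Promoter sequences were found for 8 of the 10 genes (17 windows of 250 bases ending at a start, RefSeq, GRCh38.p14), and IL18 and IL36B had no match. Letters were searched on both strands for TATAAA, for TGANTCA (AP-1), for TTNNGNAA (C/EBP), for GGAAGT (PU.1), and for the NF-κB consensus. Capitals mark every match in the sequences that follow.
IL1B, chr2:112836780-112837029, minus strand: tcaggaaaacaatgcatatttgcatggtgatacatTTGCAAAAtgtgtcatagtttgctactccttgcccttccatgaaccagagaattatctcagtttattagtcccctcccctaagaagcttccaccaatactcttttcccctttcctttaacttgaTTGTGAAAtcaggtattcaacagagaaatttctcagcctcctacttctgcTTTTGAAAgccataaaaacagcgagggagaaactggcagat
IL1A, chr2:112784494-112784743, minus strand: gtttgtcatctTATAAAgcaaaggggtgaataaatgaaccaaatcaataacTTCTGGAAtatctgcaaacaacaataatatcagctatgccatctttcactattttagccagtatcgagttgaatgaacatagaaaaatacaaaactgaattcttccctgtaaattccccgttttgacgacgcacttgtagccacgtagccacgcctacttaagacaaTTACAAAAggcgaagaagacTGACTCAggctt

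The IL1B window held 3 matches to TTNNGNAA and 0 to the other 4 motifs. The IL1A window held 1 match to TATAAA, 1 to TGANTCA, and 2 to TTNNGNAA, none of them overlapping. A second IL1A window, which ends at another start and is not printed, held 0, 2, and 1. Over 35116 promoter windows of the same length, 33.2% held TTNNGNAA, 19.5% GGAAGT, 10.7% TATAAA, 9.96% the NF-κB consensus, and 6.57% TGANTCA. The NF-κB consensus was found in 1 of the 17 windows, that of IL1R2. Letters in these windows describe sequence and not binding, and motifs farther from the start were not searched.

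By distance over the differences of IMQ from Ctrl and of IMQ+DMD from IMQ, the named genes nearest to IL1B among 17426 were RRAD (0.21 log2 units away), BMP6 (0.24), and BIRC3 (0.33). RRAD differed by 4.24 with IMQ and by -0.13 between IMQ+DMD and IMQ. Nearest to IL1A were CXCR5 (0.07), HCAR3 (0.08), and TTYH2 (0.10), and nearest to IL36G were OTUD7A (0.02), SPACA6P (0.02), and VMO1 (0.03). This likeness rests on 3 arrays.

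The label of a macrophage culture was checked against marker genes. Of 11 macrophage or monocyte markers, 9 were read and all 9 were well above background on each array, the brightest being TYROBP at 237219, 223150, and 227349 in Ctrl, with IMQ, and with IMQ+DMD. CD68 and LYZ were not analysed here. The summed intensity of the 9 was 564352 in Ctrl, 466963 with IMQ, and 449444 with IMQ+DMD. With IMQ 1 of them, the scavenger receptor CD163, was at least 2-fold lower (-1.22), beside 3.48% of all probes compared. This count became 5 of 9 without normalization between arrays and under spike-in scaling, where 15.6% and 19.7% of all probes were lower. With IMQ+DMD against Ctrl 3 of the 9 were at least 2-fold lower, beside 4.91% of all probes compared. These were CD163 (-1.13), CD14, the coreceptor of toll-like receptor 4, at 21875, 13399, and 9436 (-1.21), and FCGR1A, an Fc receptor, at 77.7, 46.7, and 35.2 (-1.14). The count was 2 at the 75th percentile (4.3% of all probes) and with normexp (2.25%), where FCGR1A was lost (nearest to 0 at -0.61). It was 4 without normalization between arrays (10.4%) and under spike-in scaling (9.1%). The part of these changes in the IL-1 family values was not tested.

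Markers of other cell types were read as well. The keratinocyte marker TP63, the neutrophil granule marker CEACAM8, and the fibroblast marker COL1A2 were not well above background on any array. The summed keratinocyte list was 18889, 17833, and 18237, nearly all of it KRT10 (18750, 17724, and 18069), with 4, 3, and 4 of its 5 genes above background. The T cell list (4 of 4 above background) summed to 711, 623, and 722 with CD3D the brightest at 319, 304, and 335. The B cell list (3 of 3) summed to 4671, 3800, and 4511, led by CD79A at 4148, 3424, and 4011. The neutrophil granule list (3 of 4) summed to 18010, 19307, and 20880, led by AZU1 at 15676, 16790, and 18251, the fibroblast list (2 of 3) to 164, 138, and 170, led by DCN at 112, 86.3, and 120, and the endothelial list (3 of 3) to 6069, 5569, and 4576, led by PECAM1 at 5361, 4916, and 3918. With each gene read from its brightest probe, only KRT5 of these differed by 2-fold in a comparison, at 1.11 between IMQ+DMD and IMQ (spot SD 0.35). Its IMQ spot was not well above background, so this value is counted from the lowest signal above background. The KRT5 call was lost with normexp and with the median of pixels (lowest 0.44). Other scalings added further markers, among them MS4A1 of the B cell list, at 0.92 between IMQ+DMD and IMQ and up to 1.33. The dimmer probe of KRT14 was -1.17 between IMQ+DMD and Ctrl.

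The arrays differed in overall brightness before normalization. The 75th percentile of the raw intensity was 472 in Ctrl, 346 with IMQ, and 361 with IMQ+DMD, and 72.0%, 66.6%, and 71.9% of probes were well above background. The part of this difference in the results was not tested beyond the other ways of processing. The number of arrays limits the precision of every value above.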

How the data were processed

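Total RNA was labeled with Cy3 and hybridized to 1 one-color Agilent array for each condition. For each array the authors deposited the scanner output (Feature Extraction 10.5.1.1), from which the marks for spots above background, saturated, or outlying were used together with the intensities and probe positions on hg19. The authors also deposited a table of raw and quantile-normalized intensity per probe with a detection word, and the normalized intensity was converted to log2 here. For the 57901 single-spot probes, its raw intensity lay within 0.1% of the scanner value. Control spots were left out (2075 per array). A probe below background was raised to the array floor, the lowest value above background, where it lay under it, and was compared where the brighter array was above background. A call was 2-fold, and the number of arrays allowed no test.

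The spot SD was the median SD of the 20 repeated probes nearest in brightness, with no limit on how near. Where a gene had several probes, that of the highest mean log2 value over the 3 arrays stood for it. All members, every listed gene past 2-fold, and the brightest gene of each list were named, with a few others for context. The members, lists, and rules were chosen with earlier results of these data known. The alternatives were an own quantile normalization without outlier spots, the 75th percentile, no normalization, 8 spike-in probes, normexp with an offset of 50, the median of pixels, no floor, and only probes above background on both arrays. Tools were R 4.3.3, limma 3.58.1, Python 3.11.15, numpy 2.4.6, pandas 2.3.3, and matplotlib 3.10.9.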

Additional observations from a re-analysis of the deposited data

How the results depend on the processing

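The number of genes at least 2-fold higher with IMQ, 4 of 10, was 2 without normalization between arrays (1.71% of all probes compared), under spike-in scaling (1.51%), with normexp (1.72%), with the median of pixels (3.42%), and at a 4-fold threshold (0.895%). It was 6 at 1.5-fold (11.2%) and 3 at the 75th percentile (3.62%), where IL1RN was gained and IL36G and IL1R2 were lost. The genes at least 2-fold lower with IMQ, 0, became 1 (IL18BP) without normalization (15.6%), under spike-in scaling (19.7%), and at 1.5-fold (10.6%). Those lower with IMQ+DMD than with IMQ, 0, became 2 at 1.5-fold (5.98%). Those at least 2-fold higher with IMQ+DMD than in Ctrl, 2, became 1 with normexp (1.48%) and at 4-fold (0.62%). At 1.5-fold IL36G, at 1.54-fold, was gained (9.78%). The cause was not tested beyond the threshold itself. Without normalization and under spike-in scaling the median of all probes shifted to -0.51 and -0.60 for IMQ against Ctrl and to -0.33 and -0.27 for IMQ+DMD against Ctrl, and under spike-in scaling to 0.21 for IMQ+DMD against IMQ. Of the 8 alternatives, 2 leave the values of the 12 probes as they are. Of the 72 values under the other 6, 67 kept their direction for IMQ against Ctrl, 66 for IMQ+DMD against IMQ, and 67 for IMQ+DMD against Ctrl, and the exceptions were IL36B and both IL36RN probes, IL18, IL36B, and 1 IL36RN probe, and IL1R2, IL33, and 1 IL1RN probe, respectively. All 24 values of the 4 genes called with IMQ kept their direction. No paired analysis was possible because each condition has 1 array, and leaving out a replicate was not possible for the same reason.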

Other observations

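Probes between the IL1A and IL1RN probes that carry other names were chosen after their values were seen. The probe of lnc-IL1B-1, a noncoding transcript by its name, read at chr2:113576831-113576890 on the minus strand (hg19), had normalized intensities of 59.8 in Ctrl, 104.9 with IMQ, and 99.7 with IMQ+DMD. Its difference with IMQ was 0.81 with a spot SD of 0.27, against 4.45 for IL1B itself. The probe of lnc-IL37-1 had intensities of 93.2, 79.2, and 137, with a difference of 0.79 between IMQ+DMD and IMQ and a spot SD of 0.19. Outside this stretch, the probe of lnc-IL18-1, read at chr11:112035955-112036014, had 334, 341, and 393.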
